A study of Mus musculus with 9 samples.

Results

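Tcf7, its TCF/LEF relatives and the core genes of canonical Wnt signaling were followed in splenic type 2 dendritic cells of young and adult mice. The members were the 9 genes with the symbols Tcf7, Tcf7l2, Lef1, Ctnnb1, Axin1, Axin2, Apc, Lrp5 and Lrp6, out of 24054 genes in the gene tables, and all 9 were found and passed the low-count filter. The 9 libraries fell into 3 groups of 3. Young TOM+ cDC2 and young TOM- DC2 came from mice at postnatal day 8, and adult TOM+ cDC2 came from mice aged 9 weeks (library 91) or 8 weeks (libraries 92 and 95). Libraries are named here by their group and the number in their deposited name, which is 81, 91 or 92 in both young groups. All mice were C57BL/6 with the genotype Clec9a-Cre/Cre Rosa-tdTomato/tdTomato, so that the control and the compared cells carry the same alleles. In these animals Cre is driven from the Clec9a locus, which dendritic cell progenitors and cDC1 use, and a cell turns on the red fluorescent protein TOMATO (TOM) once it or a progenitor has expressed Clec9a. The gate took live single MHCII+ CD11c+ CD11b+ cells without autofluorescence, split by TOM, and the labelled gate names no step that removes T cells or innate lymphoid cells. Several young spleens went into a sort, so that a young library is not a single animal.

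TCF/LEF proteins bind DNA at the targets of the Wnt pathway. Without a Wnt ligand, a cytoplasmic destruction complex built on Axin and APC marks β-catenin (Ctnnb1) for degradation, and TCF/LEF factors sit with Groucho/TLE corepressors. When a ligand engages a Frizzled receptor with its co-receptor LRP5 or LRP6, β-catenin accumulates, enters the nucleus and joins the TCF/LEF factor, and Axin2 is a widely used readout of that step. Tcf7 encodes TCF1, known best from T cell development, T cell memory and innate lymphoid cells, and dendritic cells use β-catenin in the control of tolerance.

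Libraries held 12783252 to 22809401 reads on genes, and Flt3, Zbtb46, Sirpa, Itgam, Itgax and MHC class II genes, which define the sorted cells, were present in every library. The summed TPM (transcript abundance scaled to transcript length and to the library total) of 9 cDC2 markers was 61447.3 to 65706 in young TOM+ cDC2, 58496.5 to 63366.2 in young TOM- DC2 and 92159.8 to 95128.2 in adult TOM+ cDC2. Young TOM- DC2 library 81 stood apart by neutrophil and erythroid transcripts, with a summed TPM of 14.0 over 4 neutrophil markers against 0.38 and 0.47 in the other libraries of its group, and of 8.62 over 4 erythroid markers against 1.07 and 1.14. Markers of monocytes and macrophages summed to 520.1 to 605.3 TPM in the young libraries and 390.1 to 459.8 TPM in adults, those of cDC1 to 47.7 to 71.6 TPM and those of plasmacytoid dendritic cells to 20.4 to 26.9 TPM over all libraries. Fits that left out a library were read for the members, the Wnt genes named with a difference, Irf8 and Ms4a1. Where a reported difference lost its adjusted p under 0.05 in such a fit, this is stated below. Other marker genes were not read in this way.

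Tcf7 had the smallest adjusted p of the 9 members in every comparison, and its order was adult TOM+ cDC2, then young TOM- DC2, then young TOM+ cDC2. The gene lies at chr11:52246527-52283383 (GRCm38.p6, the assembly also called mm10). Its level was 18.03, 13.8 and 13.5 TPM in young TOM+ cDC2 libraries 81, 91 and 92. The same numbers of young TOM- DC2 held 49.6, 30.9 and 42.4 TPM. Adult TOM+ cDC2 libraries 91, 92 and 95 held 53.0, 57.1 and 79.9 TPM. No value of a group fell within the range of another group, the nearest being young TOM- DC2 library 81 and adult library 91. Group means were 15.1 ± 2.55 TPM, 41.0 ± 9.45 TPM and 63.4 ± 14.5 TPM (SD, n = 3). These levels rested on 333 to 1797 reads per library.

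Between the young groups, Tcf7 was 2.63-fold lower in TOM+ cDC2 than in TOM- DC2 (log2FC -1.39 ± 0.17 SE, adjusted p = 0.000622 by edgeR's quasi-likelihood test with Benjamini-Hochberg adjustment over 14452 genes). Tcf7 was the only one of the 9 members called in this comparison, where a call means an adjusted p under 0.05 and a log2FC beyond 1 in either direction. Over all genes tested, 1.18% were called and 1.16% were called in the direction of Tcf7. Set against each other by number, TOM+ and TOM- libraries of the young mice differed by -1.61 to -1.08 on the log2 scale, with the same sign in all 3 pairs. Young TOM+ cDC2 also held less Tcf7 than adult TOM+ cDC2 by 4.57-fold (log2FC -2.19 ± 0.17 SE, edgeR adjusted p = 1.71e-06), the only member called there, where 12.8% of all genes were called. The young TOM- DC2 lay 1.74-fold below adults (log2FC -0.80 ± 0.16 SE, edgeR adjusted p = 0.00206), which passed the test but not the fold limit. No member was called in that comparison by edgeR or by DESeq2, against 11.3% of all genes, although 3 of 9 (Tcf7, Tcf7l2 and Axin2) had an unadjusted p under 0.05, against 46% of all genes. All 20 alternative fits kept the first 2 differences past the threshold, with log2FC from -1.55 to -1.28 and from -2.29 to -1.99. Both comparisons with adults are called age comparisons below, although young TOM- DC2 differ from the adult cells in TOM label as well as in age. In a bulk library, fewer cells that express a gene and less RNA per cell cannot be told apart.

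**Figure D1:**
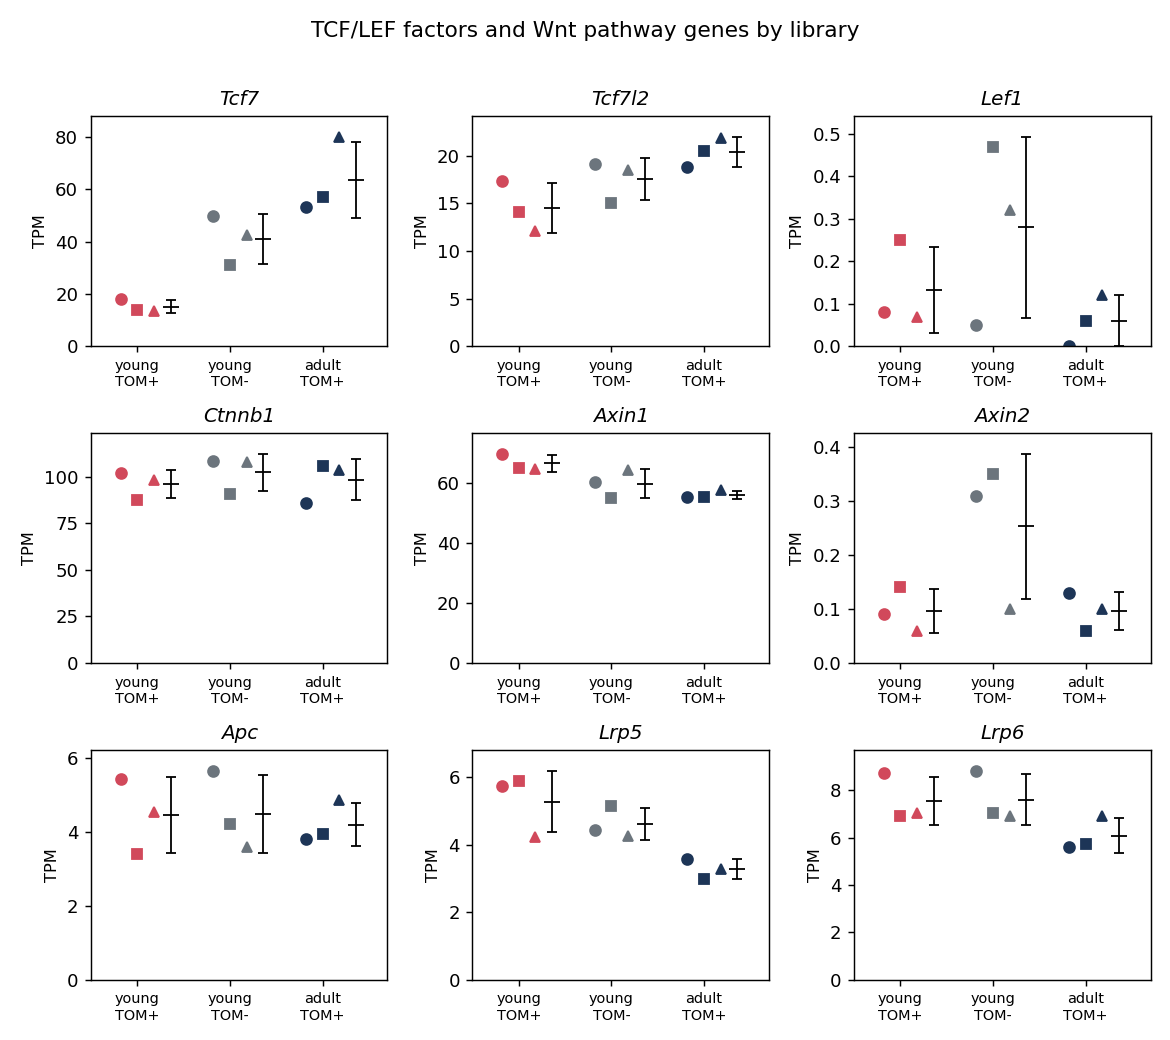
Level of each of the 9 members (TPM, linear axis from 0) in every library, by group; circles, squares and triangles are the 3 libraries of a group in the order of their numbers, and the bar beside them gives mean and SD (n = 3). Tcf7 separates into 3 levels, from 13.5 to 18.03, from 30.9 to 49.6 and from 53.0 to 79.9 TPM, while Ctnnb1 lies between 86.1 and 109 TPM in all libraries.

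Because Tcf7 is also a gene of T cells and innate lymphoid cells, the markers of those cells were read beside it. Il1r1, the receptor for IL-1, was at 3.57, 4.02 and 4.15 TPM in young TOM- DC2 and at 0.06 to 0.31 TPM in the other 6 libraries. Of 11 ILC3 markers, 9 could be tested, and 3 of them (Il1r1, Gata3 and Il18r1) were called higher in young TOM- DC2 than in young TOM+ cDC2, against 1.16% of all genes. The 11 markers summed to 3.86 to 5.31 TPM in young TOM+ cDC2, 13.75 to 15.02 TPM in young TOM- DC2 and 4.84 to 6.92 TPM in adults. Il22 and Il17a were at 0 in every library, and Thy1, Ncr1 and Il23r had at most 4 reads in any library. Il7r, the IL-7 receptor chain, was at 2.89 to 3.63 TPM in young TOM+ cDC2, 4.79 to 5.61 TPM in young TOM- DC2 and 3.14 to 4.87 TPM in adults, and did not pass the test. Gata3 was at 2.12 to 2.52 TPM in young TOM- DC2 and at most 0.46 TPM elsewhere, and Il18r1 at 1.01 to 2.42 TPM and at most 0.24 TPM. Zbtb16 was at 0.26 to 1.44 TPM and Tox at 0 to 0.34 TPM over all libraries. Against adults, 4 of the 9 were called higher in young TOM- DC2 (Il18r1, Il1r1, Gata3 and Tox), whereas in young TOM+ cDC2 Il1r1 was called higher and Il23r, Gata3 and Zbtb16 lower. Over all genes, 6.5% were called higher in young TOM- DC2, and in young TOM+ cDC2 5.96% were called higher and 6.86% lower. The part of ILC3 marker expression in the Tcf7 difference between the young groups was not tested.

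Of the 9 T cell markers, Cd247, the CD3ζ chain, was called higher in young TOM- DC2, at 7.25, 4.75 and 7.88 TPM against 0.25 to 0.37 TPM in young TOM+ cDC2 and 0.08 to 0.33 TPM in adults. Over all genes, 1.16% were called higher in young TOM- DC2 than in young TOM+ cDC2. The T cell markers summed to 28.1 to 29.2 TPM in young TOM+ cDC2, 44.1 to 48.5 in young TOM- DC2 and 22.6 to 32.6 in adults, and most of each sum was Cd5. Cd5 is also found on dendritic cells. The CD3 chains that define T cells were low, with Cd3d at 0.19 to 1.25 TPM, Cd3e at 0 to 1.74 TPM and Cd3g at 0 to 2.77 TPM over all libraries, as was Bcl11b at 0 to 0.23 TPM. Cd3e and Cd3g were highest in young libraries numbered 91, where Cd3e reached 1.22 TPM in TOM+ cDC2 and 1.74 TPM in TOM- DC2. Tcf7 in those libraries lay between the other values of young TOM+ cDC2 (13.8 TPM) and was the lowest of young TOM- DC2 (30.9 TPM). Adult libraries had 0 to 2 Cd3e reads. Against adults, Cd247, Cd28 and the kinase Lck were called higher in young TOM- DC2, and Cd28 was called higher and Cd8b1 lower in young TOM+ cDC2. Over all genes, 6.5% were called higher in young TOM- DC2 than in adults, and 5.96% higher and 6.86% lower in young TOM+ cDC2. Cd28 had 1 to 10 reads in each young library and none in adults, Lck was at 0.22 to 1.08, 1.79 to 2.14 and 0.31 to 0.60 TPM in the 3 groups, and Cd8b1 at 0 to 0.22, 0.26 to 0.77 and 0.46 to 1.19 TPM. The part of T cell marker expression in the Tcf7 differences was not tested.

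Surface and Notch-linked genes of ESAM-high cDC2, a splenic subset that depends on Notch2, were read beside the age comparison. Of 5 such genes, 4 were called higher in adult than in young TOM+ cDC2 (Esam, Cd4, Dtx1 and Clec4a4), against 6.86% of all genes. Compared with young TOM- DC2, 3 of the 5 were called higher in adults, against 4.78% of all genes. None passed the test between the young groups. Esam, for example, was at 14.4 to 27.0 TPM in young TOM+ cDC2, 23.2 to 37.9 TPM in young TOM- DC2 and 72.6 to 90.7 TPM in adults. Their part in the Tcf7 difference with age was not tested.

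**Figure D2:**
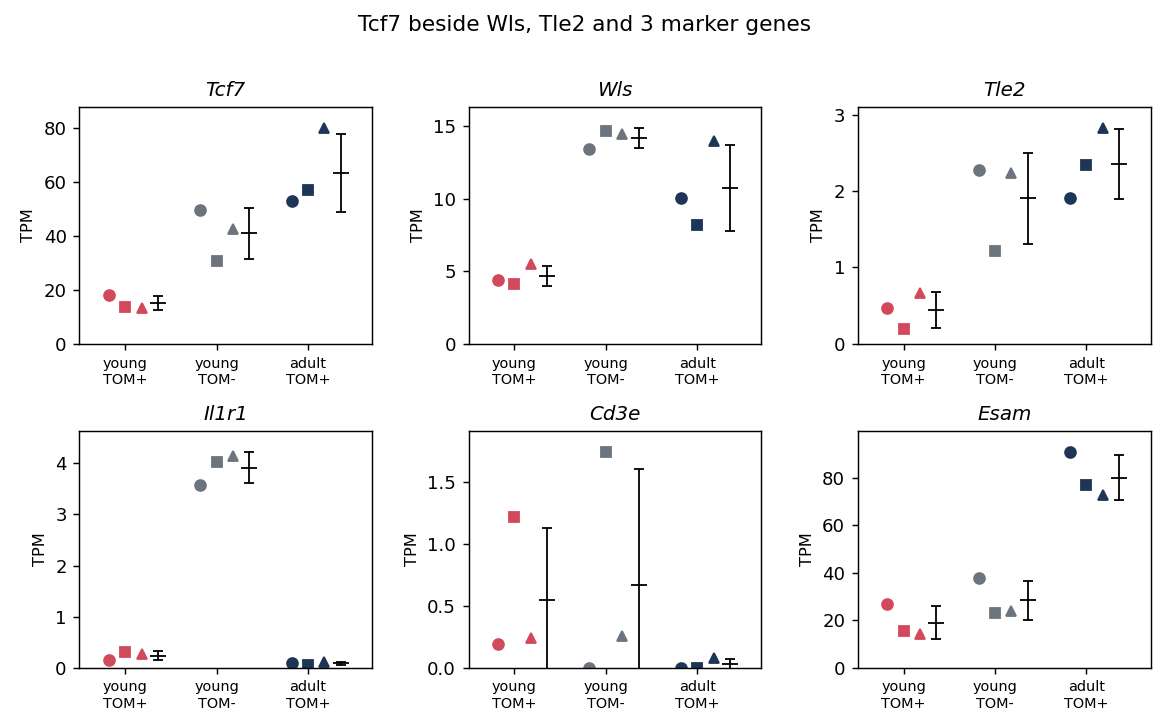
TPM of Tcf7, of Wls and Tle2, and of a marker each of ILC3 (Il1r1), T cells (Cd3e) and ESAM-high cDC2 (Esam), by library; symbols mark the libraries of a group in the order of their numbers, and bars give mean and SD (n = 3). Il1r1 is at 3.57 to 4.15 TPM in young TOM- DC2 and at 0.31 TPM or below elsewhere, whereas Tcf7 is highest in the adult libraries, at 53.0 to 79.9 TPM.

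Tcf7l2, which encodes TCF4 and is the other TCF factor with a substantial level, was lower in both young groups than in adults, by less than Tcf7 (chr19:55741797-55933659). It was at 17.3, 14.1 and 12.1 TPM in young TOM+ cDC2, 19.1, 15.0 and 18.5 TPM in young TOM- DC2, and 18.8, 20.5 and 21.9 TPM in adults. In TPM, young TOM- DC2 library 81 lay above the lowest adult library, although the normalized counts of those groups did not overlap. The young groups overlapped, and their difference did not pass the test (log2FC -0.25 ± 0.12 SE, edgeR adjusted p = 0.539). Tcf7l2 was lower in young TOM+ cDC2 than in adults (log2FC -0.62 ± 0.12 SE, edgeR adjusted p = 0.00123), and this held in all 20 alternative fits. The difference of young TOM- DC2 from adults was smaller (log2FC -0.37 ± 0.12 SE, edgeR adjusted p = 0.0277), and 7 of the 20 alternatives did not keep it. Among those, leaving out young TOM- DC2 library 91 gave an adjusted p of 0.11, leaving out adult library 92 gave 0.0723 and leaving out adult library 95 gave 0.0828.

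Lef1 was close to undetected in these cells (chr3:131110297-131224357). Its reads numbered 3, 10 and 3 in young TOM+ cDC2, 1, 10 and 11 in young TOM- DC2, and 0, 1 and 4 in adults. All groups overlapped, with 0 to 0.47 TPM, and the highest young libraries were those numbered 91 and TOM- DC2 library 92. No comparison passed the test, with edgeR adjusted p of 0.96, 0.406 and 0.248. At this depth a difference in Lef1 between the groups was not detectable.

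Tcf7l1, the remaining TCF gene, was read with these 3 to give the make-up of the family. The summed TPM of the 4 factors was 36.5, 29.1 and 26.3 in young TOM+ cDC2, 71.1, 47.8 and 62.6 in young TOM- DC2, and 72.6, 78.4 and 102.8 in adults. Tcf7 made up 47.4% to 51.3% of that sum in young TOM+ cDC2, 64.6% to 69.8% in young TOM- DC2 and 72.9% to 77.8% in adults. In young TOM+ cDC2 the levels of Tcf7 and Tcf7l2 overlapped, whereas in the other groups every Tcf7 value was above every Tcf7l2 value. These shares follow from the same reads as the Tcf7 comparison and were not tested again.

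**Figure D3:**
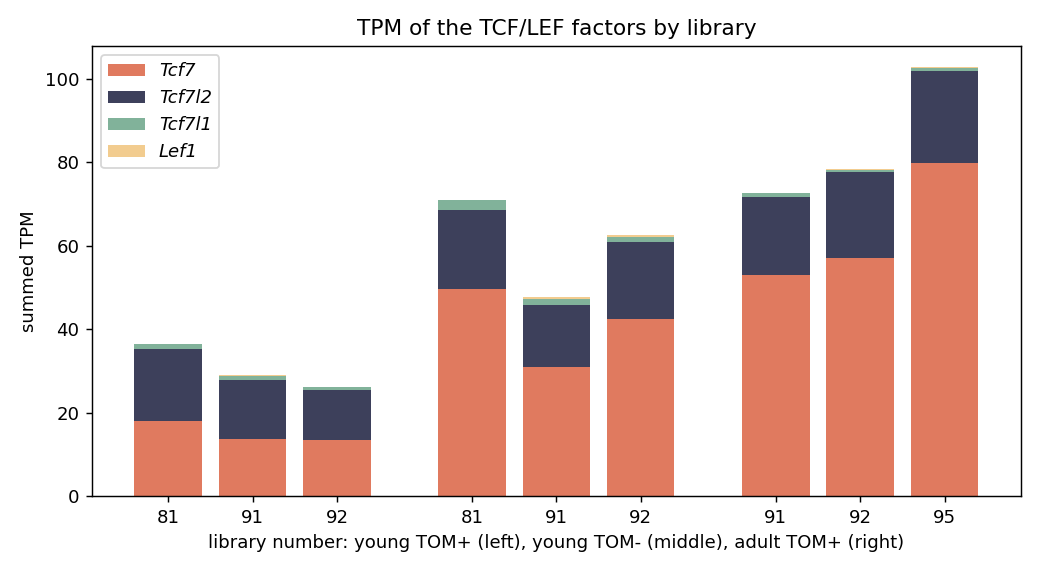
Stacked TPM of Tcf7, Tcf7l2, Tcf7l1 and Lef1 in each library (bars from 0, 1 bar per library, labelled by library number). The sum runs from 26.3 to 36.5 in young TOM+ cDC2, 47.8 to 71.1 in young TOM- DC2 and 72.6 to 102.8 in adult TOM+ cDC2, and the Tcf7 segment accounts for most of the change in height.

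The deposited gene model holds a single Tcf7 transcript (NM_009331, 2238 bases), so forms of TCF1 with and without the part that binds β-catenin were counted as 1 gene. For Tcf7l2, with 8 transcripts, the mean transcript length that RSEM assigned was 4040.5 to 4054 bases in young TOM+ cDC2, 4051 to 4062 in young TOM- DC2 and 4047 to 4051 in adults. A 2-sided exact permutation test gave p = 0.2, 0.6 and 0.1 for the 3 comparisons, adjusted p = 0.6, 0.72 and 0.6 over 6 tests with those of Lef1, and 3 against 3 libraries cannot go below 0.1. Lef1 lengths, resting on at most 11 reads, ranged from 2305 to 3657 bases, and their tests did not pass either (exact permutation p = 0.4, 0.8 and 0.4).

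Ctnnb1, the signal carrier of the pathway, was the most abundant member in every group, and no comparison passed the test (chr9:120933400-120960507). It was at 102, 87.6 and 98.3 TPM in young TOM+ cDC2, 109, 90.9 and 108 TPM in young TOM- DC2, and 86.1, 106 and 104 TPM in adults. The groups overlapped in each comparison. The log2FC was -0.06 ± 0.10 SE between the young groups, -0.16 ± 0.10 between young TOM+ cDC2 and adults and -0.10 ± 0.10 between young TOM- DC2 and adults, with edgeR adjusted p of 0.943, 0.206 and 0.438. β-catenin is controlled mainly as a protein, which RNA does not show.

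The destruction complex was represented by Axin1, Axin2 and Apc, and none of them passed the test in any comparison. Axin1, its scaffold, was at 69.8, 65.2 and 64.9 TPM in young TOM+ cDC2, 60.3, 54.9 and 64.4 TPM in young TOM- DC2, and 55.5, 55.2 and 57.7 TPM in adults (chr17:26131217-26195811). In TPM the young TOM+ cDC2 values lay above those of both other groups without overlap, and the fitted differences were 0.19 ± 0.08 SE and 0.12 ± 0.08 SE (log2FC, edgeR adjusted p = 0.45 and 0.261). Apc, which holds β-catenin in the complex, was at 3.41 to 5.67 TPM over all 9 libraries, with overlapping groups and log2FC of 0.03, -0.04 and -0.08 in the 3 comparisons. Against adults, Axin1 in young TOM+ cDC2 passed the test when libraries were scaled by totals alone or limma was run on log2 TPM (adjusted p from 0.00472 to 0.0272).

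Axin2, the feedback inhibitor and pathway readout, was barely detected in any group (chr11:108917828-108950783). Its reads numbered 5, 6 and 4 in young TOM+ cDC2, 13, 14 and 8 in young TOM- DC2, and 4, 2 and 4 in adults. In normalized counts, young TOM- DC2 overlapped with each of the other groups, and all levels lay between 0.06 and 0.35 TPM. The differences of young TOM- DC2 did not pass the test, at log2FC -1.30 ± 0.56 SE for young TOM+ minus young TOM- cells (edgeR adjusted p = 0.475, unadjusted p = 0.0385) and 1.34 ± 0.60 SE for young TOM- DC2 minus adults (edgeR adjusted p = 0.0992).

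The co-receptors were Lrp5 and Lrp6, which pair with Frizzled receptors at the surface. Lrp5 was at 5.73, 5.87 and 4.22 TPM in young TOM+ cDC2, 4.42, 5.13 and 4.25 TPM in young TOM- DC2, and 3.56, 2.97 and 3.27 TPM in adults (chr19:3584825-3686585). Every young library was above every adult library. Lrp5 was higher in young TOM+ cDC2 than in adults (log2FC 0.55 ± 0.15 SE, edgeR adjusted p = 0.0139), while young TOM- DC2 did not pass against adults (0.32 ± 0.16 SE, adjusted p = 0.129). The first of these rested on single libraries, as the adjusted p was 0.0611 without young TOM+ cDC2 library 91 and 0.0501 without adult library 92. Lrp6 was at 6.90 to 8.83 TPM in the young libraries and 5.59 to 6.93 TPM in adults, with overlap and no comparison past the test (edgeR adjusted p of 0.98, 0.202 and 0.297; chr6:134446476-134566913).

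**Figure D4:**
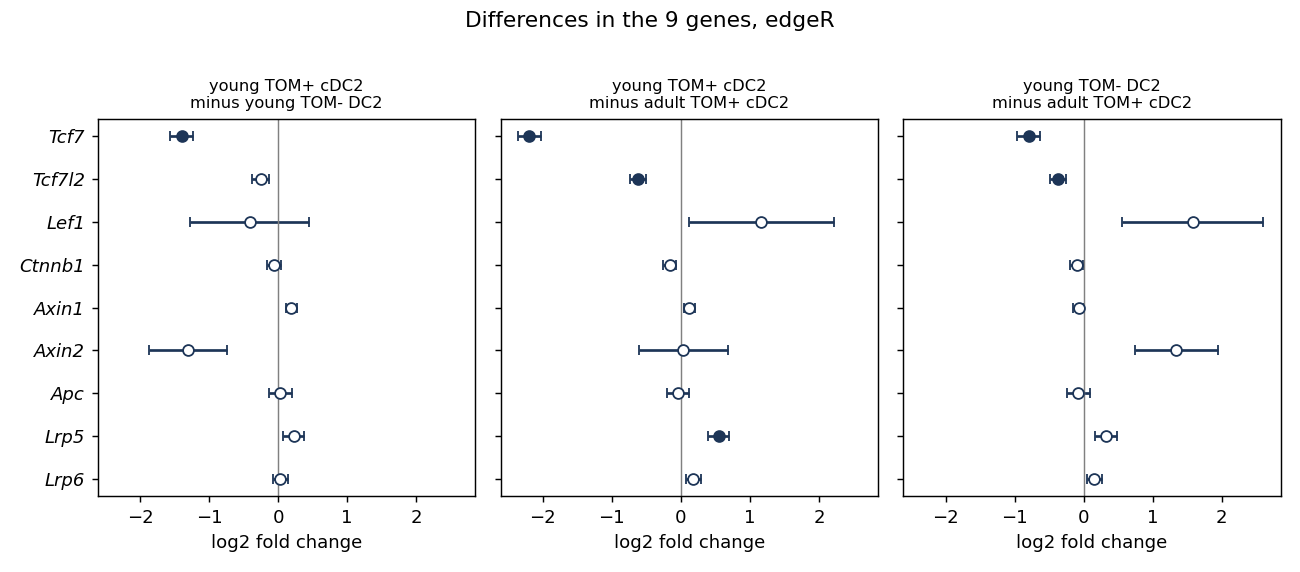
log2 fold change of the 9 members in the 3 comparisons, by edgeR; bars are SE, filled points have an adjusted p under 0.05 over all genes and open points do not. Tcf7 lies at -1.39, -2.19 and -0.80, and the wide bars belong to Lef1 and Axin2, which had at most 14 reads in any library.

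Counted over the members, 1 of 9 passed an adjusted p of 0.05 between the young groups (Tcf7), 3 of 9 between young and adult TOM+ cDC2 (Tcf7 and Tcf7l2 lower and Lrp5 higher in young) and 2 of 9 between young TOM- DC2 and adults (Tcf7 and Tcf7l2, lower in young). Over all genes, 1.6%, 40.6% and 36.3% passed in these comparisons. By direction, the 2 members lower in young than in adult TOM+ cDC2 stand beside 19.5% of all genes and the 1 higher member beside 21%, and the 2 lower and 0 higher members of the last comparison beside 16.9% and 19.4%. An unadjusted p under 0.05 was reached by 3 of 9 members between the young groups (Tcf7, Axin1 and Axin2) and by 3 of 9 between young and adult TOM+ cDC2 (Tcf7, Tcf7l2 and Lrp5), against 9.38% and 48.6% of all genes. Normalized counts of the groups did not overlap for 2, 4 and 3 members, against 16.6%, 51.1% and 47.6% of all genes. The median log2FC of the members was -0.06, 0.04 and -0.07, beside 0.00, 0.05 and 0.07 over all genes. The 3 comparisons share libraries, so their counts are not independent of each other.

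In the order of levels, Ctnnb1 stood first in all groups and Lef1 and Axin2 last, with overlapping values. Axin1 and then Tcf7 came next in both young groups. In adults Tcf7 (mean 63.4 TPM) and Axin1 (mean 56.1 TPM) were neighbours whose values overlapped. Lrp6, Lrp5 and Apc followed Tcf7l2 at 2.97 to 8.83 TPM, and Lrp5 and Apc overlapped in the young groups but not in adults.

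Around the members, 116 other genes of the pathway were listed by role, of which 86 passed the low-count filter and were tested. Between the young groups 2 of the 86 were called, Wls and Tle2, both lower in TOM+ cDC2, against 1.16% of all genes called lower and 0.0208% called higher there. Tle1 passed the test below the fold limit, so that 1 was higher and 2 were lower by adjusted p alone, against 0.125% and 1.47% of all genes. Between young and adult TOM+ cDC2, 29 passed the test, 14 higher and 15 lower in young, against 21% and 19.5% of all genes. Of these, 13 were called, 9 of them higher and 4 lower, against 5.96% and 6.86% of all genes. Between young TOM- DC2 and adults, 32 passed, 18 higher and 14 lower in young, against 19.4% and 16.9% of all genes. Of these, 13 were called, 11 of them higher and 2 lower, against 6.5% and 4.78% of all genes. Scaling libraries by their totals alone moved the median of all genes by 0.20 and 0.22 (log2) toward young cells in these 2 age comparisons. The split by adjusted p was then 21 higher and 10 lower in the first comparison and 24 higher and 8 lower in the second. The median log2FC of the 86 was -0.04, -0.02 and -0.05 in the 3 comparisons, and unchanged to 2 decimals with genes at 0 in a whole group set to their bound.

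Wls, which carries Wnt ligands to the cell surface for secretion, shared with Tcf7 the low level in young TOM+ cDC2. It was at 4.4, 4.16 and 5.47 TPM there, 13.4, 14.7 and 14.4 TPM in young TOM- DC2, and 10.03, 8.17 and 14.0 TPM in adults. Young TOM+ cDC2 overlapped with no other group, while young TOM- DC2 and adults overlapped. Wls was lower in young TOM+ cDC2 than in young TOM- DC2 (log2FC -1.58 ± 0.18 SE, edgeR adjusted p = 0.000483) and than in adults (-1.31 ± 0.19 SE, adjusted p = 0.000159). These differences passed in all 20 alternative fits. Young TOM- DC2 and adults did not differ past the test (0.27 ± 0.18 SE, adjusted p = 0.252).

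Tle2, a Groucho corepressor that binds TCF factors, had 16, 8 and 24 reads in young TOM+ cDC2, 56, 35 and 94 in young TOM- DC2, and 44, 49 and 81 in adults. It was at 0.19 to 0.66, 1.22 to 2.27 and 1.91 to 2.82 TPM, so that young TOM+ cDC2 lay below both other groups without overlap. The log2FC was -1.96 ± 0.34 SE against young TOM- DC2 (edgeR adjusted p = 0.00917) and -2.40 ± 0.34 SE against adults (adjusted p = 0.000144). The first of these passed in 18 of 20 alternatives, with an adjusted p of 0.0599 without young TOM- DC2 library 92. Tle1, from the same family, was the single listed gene higher in young TOM+ than in young TOM- cells (log2FC 0.49 ± 0.11 SE, edgeR adjusted p = 0.043), and it stayed past the threshold in 8 of 20 alternatives and in 1 of the 9 fits that left out a library. It was at 21.2, 18.3 and 22.0 TPM in young TOM+ cDC2, 14.7, 14.5 and 15.5 TPM in young TOM- DC2, and 25.4, 24.2 and 22.7 TPM in adults, and it was lower in young TOM- DC2 than in adults (log2FC -0.75 ± 0.11 SE, edgeR adjusted p = 0.000239).

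The promoters of these genes were searched for the TCF/LEF core CTTTGAT or CTTTGAA on both strands, in the 250 bases before and 50 bases after each RefSeq start (GRCm38.p6). Tcf7, Tcf7l2, Lef1, Ctnnb1 and Axin2 had entries, with 11 windows in all, and none held the core, nor did those of Wls or Tle2. Of 32851 promoters 8.65% held it. The shorter CTTTG on either strand, searched after the first result was seen, stood in the 250 upstream bases of 48.6% of all promoters, of 6 of the 11 member windows (those of Lef1 and Tcf7l2) and of Wls, but not of Tcf7 or Tle2. The Wls stretch is shown because Wls shared with Tcf7 the low level in young TOM+ cDC2, though not the difference between young TOM- DC2 and adults. The Wls window alone among these called genes holds the short core. Capitals mark CTTTG and its reverse complement CAAAG, at the plus strand of chr3:159839400-159839649.
Wls: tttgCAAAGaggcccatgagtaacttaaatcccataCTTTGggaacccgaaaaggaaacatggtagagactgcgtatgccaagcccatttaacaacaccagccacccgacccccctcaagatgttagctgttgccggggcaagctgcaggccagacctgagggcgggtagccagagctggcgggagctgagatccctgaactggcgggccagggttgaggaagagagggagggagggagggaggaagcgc
A match of 5 letters in a window is a description and no evidence of binding.

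Wnt ligands were few: of 19 listed genes 9 could be tested. Wnt11, which signals largely without β-catenin, was the most abundant at 16.1, 30.9 and 38.7 TPM in young TOM+ cDC2, 19.0, 32.6 and 39.1 TPM in young TOM- DC2, and 12.7, 15.1 and 13.9 TPM in adults. It was higher in both young groups than in adults (log2FC 0.90 ± 0.32 SE and 0.96 ± 0.32 SE, edgeR adjusted p = 0.0413 and 0.0339). Neither reached the fold limit, and the first did not pass without young TOM+ cDC2 library 91 or 92, young TOM- DC2 library 91 or any adult library (adjusted p up to 0.187), and the second without young TOM- DC2 library 91 or 92 or any adult library (up to 0.151). Wnt6 was highest in young TOM- DC2, at 2.29 to 2.66 TPM against 0.71 to 1.24 TPM in young TOM+ cDC2 and 0.13 to 0.62 TPM in adults. It was called against adults for both young groups, and the difference between the young groups did not pass the test (log2FC -1.29 ± 0.36 SE, edgeR adjusted p = 0.129). Wnt10b stayed at 0.93 TPM or below, and Porcn, the enzyme that attaches lipid to the ligands, at 1.18 TPM or below.

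Among 14 receptor genes 12 were tested, and 5 were called between young and adult TOM+ cDC2, 4 of them higher in young cells. Over all genes, 5.96% were called higher and 6.86% lower in young cells in that comparison. Fzd7, the most abundant Frizzled gene, was at 5.94, 4.09 and 5.05 TPM in young TOM+ cDC2, 4.04, 2.49 and 3.77 TPM in young TOM- DC2, and 1.47, 1.64 and 1.82 TPM in adults. It was higher in young TOM+ cDC2 than in adults by a log2FC of 1.49 ± 0.19 SE (edgeR adjusted p = 6.4e-05), and in young TOM- DC2 by 0.91 ± 0.19 SE (adjusted p = 0.0028). Fzd5 was at 0.87, 1.36 and 1.45 TPM in young TOM+ cDC2, 0.92, 1.17 and 1.24 TPM in young TOM- DC2, and 0.46, 0.55 and 0.74 TPM in adults. Its difference passed for young TOM+ cDC2 (log2FC 0.94 ± 0.28 SE, edgeR adjusted p = 0.0171) but not without young TOM+ cDC2 library 91 or 92 or adult library 91 or 92 (0.0522 to 0.0792), and for young TOM- DC2 it passed only with other settings, such as the replicate block (0.75 ± 0.28 SE, adjusted p = 0.0528, and 0.0204 with the block). Fzd8 had 2 to 20 reads in each young library and none in any adult library, and with a floor of 3 reads per library it was at least 2.13-fold higher in young TOM+ cDC2 and at least 2.80-fold higher in young TOM- DC2. Ptk7, a pseudokinase co-receptor, had 19 to 59 reads in the young libraries and 4, 0 and 2 in adults. Ryk, a Wnt-binding receptor of the same kind, had 8 to 15 reads in the young libraries and 0, 0 and 4 in adults, and was called in both age comparisons. Fzd6 had 9, 11 and 35 reads in young TOM- DC2 and 0, 1 and 7 in adults (edgeR adjusted p = 0.039). Ror1, a receptor for Wnt5a, went the other way, at 0.14 to 0.37 TPM in young TOM+ cDC2 and 0.58 to 0.73 TPM in adults (log2FC -1.45 ± 0.43 SE, edgeR adjusted p = 0.0178).

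Of the secreted and membrane inhibitors, 6 of 15 were tested and Dkk2, which blocks LRP co-receptors, was called in both age comparisons. Dkk2 was at 0.69, 0.79 and 0.52 TPM in young TOM+ cDC2, 0.72, 0.86 and 0.73 TPM in young TOM- DC2, and 2.46, 3.21 and 6.75 TPM in adults. Adults exceeded every young library. The log2FC was -2.77 ± 0.35 SE for young TOM+ cDC2 and -2.59 ± 0.35 SE for young TOM- DC2 (edgeR adjusted p = 5.97e-05 and 0.000113). The Dkk receptors Kremen1, at 5.99 to 9.05 TPM, and Kremen2, at 0.21 to 1.11 TPM, had no comparison past the test. In the R-spondin arm, which sets how much Frizzled stays at the surface, Rnf43 was at 4.17 to 7.87 TPM without a difference past the test, and Lgr4 was called higher in young TOM- DC2 than in adults on 17 to 54 against 3 to 12 reads. Znrf3, which like Rnf43 removes Frizzled receptors, had 25 to 51 reads in young TOM- DC2 and 8 to 20 in adults (log2FC 0.98 ± 0.35 SE, edgeR adjusted p = 0.0461), and this passed in 9 of 20 alternatives and was lost when any library but young TOM+ cDC2 81 or adult 95 was left out (adjusted p up to 0.166).

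In the cytoplasmic list 21 of 22 genes were tested and none passed between the young groups. Its most abundant genes, the kinases Csnk1a1 (168 to 220 TPM), Csnk1d (95.1 to 114 TPM) and Gsk3a (95.02 to 116 TPM), did not pass the test in any comparison. By adjusted p, 2 genes were higher and 6 lower in young than in adult TOM+ cDC2, against 21% and 19.5% of all genes. In young TOM- DC2, 3 were higher and 6 lower than in adults, against 19.4% and 16.9% of all genes. None of the lower genes reached the fold limit. Among the called genes, the feedback genes Nkd1 and Dact1 were higher in both young groups than in adults, Nkd1 on 16 to 42 against 7 or 8 reads and Dact1 on 9 to 17 against 0 to 2 reads. Apc2 was called higher in young TOM- DC2 than in adults on 9 to 23 against 2 or 3 reads.

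In the nuclear list 21 of 22 genes were tested. By adjusted p, 2 were higher and 5 lower in young than in adult TOM+ cDC2, against 21% and 19.5% of all genes. In young TOM- DC2, 3 were higher and 5 lower than in adults, against 19.4% and 16.9% of all genes. Aes (441 to 561 TPM), a short relative of the TLE corepressors, and Ctbp1 (164 to 202 TPM) did not pass the test in any comparison. Hbp1, a repressor of TCF activity, was lower in both young groups than in adults, at 42.4 to 51.0 TPM and 48.9 to 58.5 TPM against 61.9 to 83.2 TPM (log2FC -0.69 ± 0.10 SE and -0.55 ± 0.10 SE, edgeR adjusted p = 0.000237 and 0.00133). Tle6 was called lower in young TOM- DC2 than in adults on 4 or 5 reads against 19, 15 and 6.

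Of 20 genes known as Wnt targets in other tissues, 15 were tested, none passed between the young groups, and those that passed with age did not share a direction. Ccnd1, cyclin D1, was lower in both young groups (69.3 to 123 and 79.7 to 134 TPM against 133 to 173 TPM; log2FC -0.87 ± 0.19 SE and -0.80 ± 0.18 SE, edgeR adjusted p = 0.00257 and 0.00504). Nkd1, Prox1 and Fosl1 were called higher in both young groups than in adults, each at low levels: Prox1 had 4 to 32 reads in young libraries and 0 to 2 in adults. Jun, an immediate early gene, was at 427, 319 and 402 TPM in young TOM+ cDC2, 411, 312 and 349 TPM in young TOM- DC2, and 926, 364 and 417 TPM in adults, where library 91 stood apart. It was lower in young TOM- DC2 than in adults (log2FC -0.84 ± 0.28 SE, edgeR adjusted p = 0.0315), but at a log2FC of -0.28 and an adjusted p of 0.105 without adult library 91, and at 0.101 and 0.0715 without young TOM- DC2 libraries 91 and 92. For young TOM+ cDC2 the adjusted p was 0.058, and 0.0402 with the replicate block. Cd44, a receptor for hyaluronan, was at 78.5 to 112 TPM and did not pass the test. Many of these genes are also controlled by other signals.

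**Figure D5:**
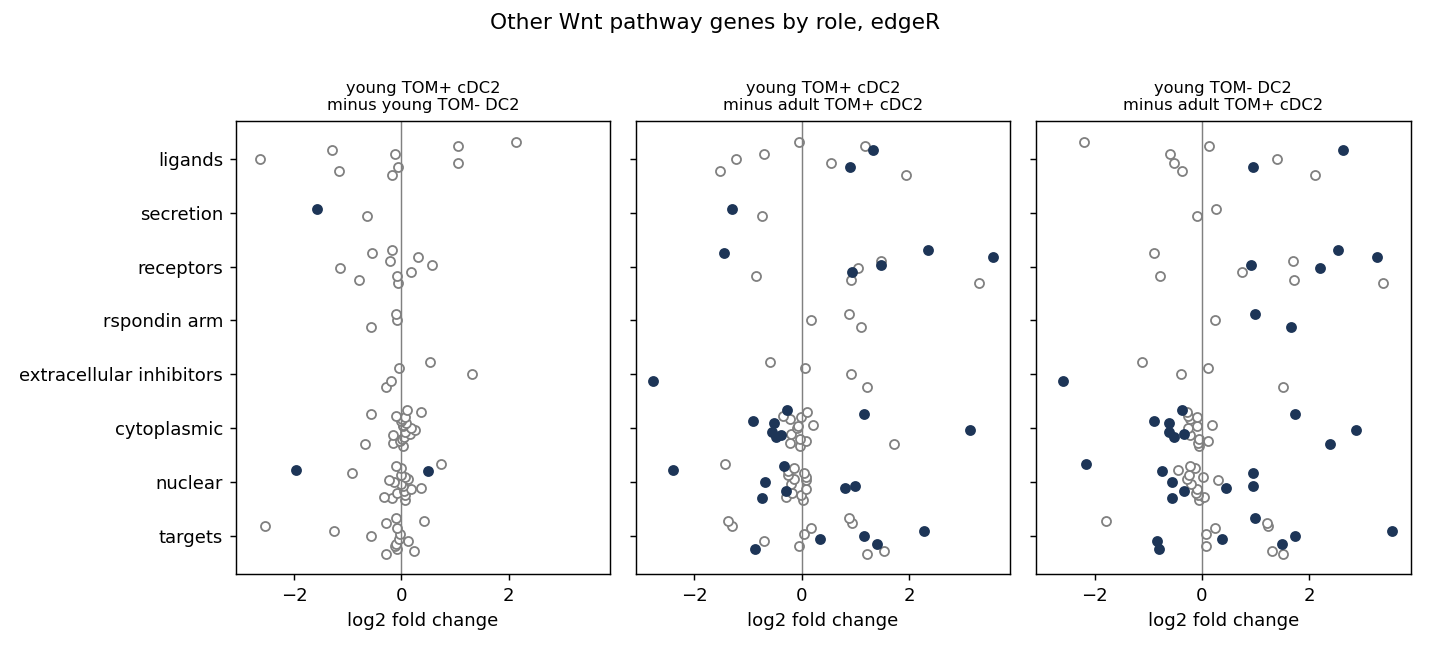
log2 fold change of 82 other Wnt pathway genes by role in the 3 comparisons (edgeR; filled points have an adjusted p under 0.05 over all genes; 4 tested genes at 0 in every adult library are left out, and genes on 2 lists are drawn on both). Between the young groups 3 points pass, Wls, Tle2 and Tle1. In the age comparisons 28 and 31 of the genes drawn pass, in both directions, beside 40.6% and 36.3% of all genes.

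Of the 13 other Wnt genes called in each age comparison, 7 kept an adjusted p under 0.05 in all 9 fits that left out a library. These were Wls, Fzd7, Fzd8, Ptk7, Dkk2, Dact1 and Tle2 for young TOM+ cDC2, and Wnt6, Fzd8, Ptk7, Dkk2, Nkd1, Dact1 and Prox1 for young TOM- DC2. The remaining 6 in each (Wnt6, Ryk, Ror1, Nkd1, Prox1 and Fosl1, and Fzd6, Ryk, Lgr4, Apc2, Tle6 and Fosl1) lost it in at least 1 such fit. For young TOM+ cDC2, Wnt6 kept it in 5 of the 9 fits, Ryk in 3, Ror1 in 7, Nkd1 in 6, Prox1 in 3 and Fosl1 in 4. For young TOM- DC2, Fzd6 kept it in 3 of the 9 fits, Ryk in 5, Lgr4 in 8, Apc2 in 6, Tle6 in 8 and Fosl1 in 5. The highest values were as follows. For young TOM+ cDC2 the adjusted p reached 0.103 for Wnt6 without library 91 of that group, 0.0632 for Ror1 without its library 92, 0.118 for Nkd1 without its library 81 and 0.127 for Fosl1 without its library 92, and it reached 0.0965 for Ryk without adult library 91 and 0.13 for Prox1 without adult library 95. For young TOM- DC2 it reached 0.179 for Fzd6, 0.0613 for Lgr4 and 0.215 for Fosl1 without library 92 of that group, 0.078 for Ryk and 0.0678 for Tle6 without adult library 91, and 0.0643 for Apc2 without adult library 95.

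The genes whose levels ran most closely with Tcf7 were named from the 10111 genes that averaged 50 reads or more, by Pearson's r of log2 CPM (counts scaled to the library size) over the 9 libraries. These were Snn (r = 0.99), Cacna1e (r = 0.98), Ms4a1 (r = 0.98), Mmp9 (r = 0.98) and Sept1 (r = 0.98). Since the libraries form 3 groups and Tcf7 takes a separate level in each, these values describe mostly the group means. Snn followed the same order, at 2.45 to 3.6, 6.78 to 8.74 and 11.6 to 16.1 TPM. Mmp9, a secreted protease, ran from 0.06 to 0.32 TPM in young TOM+ cDC2 over 7.90 to 14.7 in young TOM- DC2 to 34.7 to 107 in adults. Ms4a1, which encodes CD20 and marks B cells, was at 2.04 to 2.77, 6.02 to 10.4 and 13.8 to 22.1 TPM, and was called in all 3 comparisons (log2FC -1.59, -2.88 and -1.29, edgeR adjusted p = 0.00178, 1.47e-06 and 0.000311). With it, 5 B cell markers summed to 60.97 to 70.49, 69.36 to 80.27 and 40.05 to 53.41 TPM, most of it Cd79b. The part of B cell transcripts in these values was not tested.

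The opposite pattern, highest in young TOM+ cDC2 and lowest in adults, was closest in Emc6 (r = -0.98), Cd209d (r = -0.98), Aarsd1 (r = -0.97), Ybx3 (r = -0.97) and Dapk1 (r = -0.96). For Emc6 and Aarsd1, only the difference between young and adult TOM+ cDC2 passed the test (edgeR adjusted p = 0.00696 and 0.00856). Cd209d, a C-type lectin with close paralogs that can share reads, was at 12.5 to 27.4 TPM in young TOM+ cDC2, 3.68 to 10.1 TPM in young TOM- DC2 and 1.66 to 2.32 TPM in adults. Among the members, Tcf7l2 had the highest r with Tcf7 (0.92, rank 85 of the genes compared) and Lrp5 the lowest (-0.82), while Ctnnb1 had 0.60 and Apc 0.19. Wls had 0.80 and Dtx1 0.93.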

How the data were processed

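Sorted splenic DC2 were measured by mRNA sequencing (SMARTseq v4 cDNA, no strand) in 9 libraries, grouped by the labels for age and cell type. The authors aligned reads to mm10 with STAR and deposited counts of reads per gene, without normalization; the unstranded column was used, and reads on no single gene (26.1% to 31.6% of all reads) stayed out of library sizes. The authors also deposited RSEM expected counts (rounded for an alternative), TPM (relative to the library total, used for levels) and FPKM (not used). The STAR and RSEM versions are not given in the sources used here.

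Counts of genes with an average of at least 1 (14452) were tested in all 9 libraries with edgeR 4.0.16 (R 4.3.3, TMM factors, quasi-likelihood, Benjamini-Hochberg); SE is the log2FC divided by the root of F. Alternatives used other factors, filters and inputs, DESeq2 1.42.0 with apeglm 1.24.0, limma 3.58.1 on log2(TPM + 1) or log2(TPM + 0.1), 2 groups, a replicate block and each library left out. The study calls libraries biological replicates, although the labels number none, and p-values measure the spread between these samples. Young libraries with the same number in their name deviated together (correlations of 0.5, 0.179 and 0.33 for 81, 91 and 92), so the number was used as the block; pairs with unlike numbers had -0.409 to 0.185, the highest being TOM+ 92 with TOM- 91. No libraries of a group were copies (lowest chi-square per gene 9.181). Floors of 3 reads cover counting error only. The fit was tested on simulated counts for young TOM+ against young TOM- libraries. At an adjusted p under 0.05 it recovered 58% of 50 genes changed 1.5-fold, 80% of 50 changed 2-fold and 100% of those changed 4-fold or 8-fold. There were 11 false calls among 14252 genes tested. The changed genes averaged 50 reads or more, so this does not cover genes with fewer reads. The simulated libraries were drawn independently, without the shared deviation of same-numbered young libraries, and unchanged genes had the same mean in all groups. The rates may therefore differ in the data.

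Members and lists were chosen with earlier results of these data known. Named were the 9 members, listed Wnt genes called in any comparison or among the 3 highest of a list, T cell and ILC3 markers read beside Tcf7, and the 5 genes most and 5 least like Tcf7. Tle1, the genes of the ESAM-high and B cell lists and those of the closing section were named after their values were seen. Gene positions and promoters are from RefSeq (GRCm38.p6); protein sequences were not used here. A marker each of the ILC3 and B cell lists is not reported here, and list sums and counts leave it out. Young TOM- DC2 and adult TOM+ cDC2 differ in TOM label, which cannot be told apart from age in that comparison. Young and adult libraries differ in age, in the pooling of spleens and in the share of reads that fell on no annotated gene, which cannot be told apart. That share was 8.84% to 11.8% in young TOM+ cDC2, 10.7% to 12.8% in young TOM- DC2 and 15.2% to 17.1% in adults. TMM factors were 1.025 to 1.085 in young libraries and 0.894 to 0.928 in adults.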

Additional observations from a re-analysis of the deposited data

How the results depend on the processing

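The calls on the members were the same in all 20 alternatives: 1, 1 and 0 of 9 for young TOM+ cDC2 against young TOM- DC2, young against adult TOM+ cDC2, and young TOM- DC2 against adults. The count of members past an adjusted p of 0.05 stayed at 1 between the young groups. Against adults it was 5 in place of 3 for young TOM+ cDC2 with library totals only (Axin1 and Lrp6 added), and 2 to 3 with a library left out; for young TOM- DC2 it was 1 in place of 2 with limma on log2(TPM + 1) and 0 without its filter, where Tcf7 had an adjusted p of 0.0527, and 1 to 2 with a library left out. The cause was not tested.

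Called genes among the other Wnt genes between the young groups numbered 1 in place of 2 with unfiltered limma, and with a library left out 1 to 2, with 1 to 3 past the adjusted p alone. For young against adult TOM+ cDC2 they numbered 21 with library totals, 6 with limma on log2(TPM + 1) and 5 without its filter in place of 13, with 18 to 31 in place of 29 past the adjusted p with a library left out, the 18 without adult library 91. For young TOM- DC2 against adults they numbered 20, 5 and 4 under the same settings in place of 13. With library totals, Lrp5 and Lrp6 in young TOM- DC2 also passed against adults (adjusted p = 0.0153 and 0.0253). No difference that passed the test reversed its sign, and the replicate block changed no call on a member or on a Wnt gene called in the report. The order of the 3 group means was the same in TPM and in normalized counts for 5 of 9 members; Ctnnb1, Axin1, Apc and Lrp6, whose groups differ little, changed order. Lef1 and Axin2 had at most 14 reads in any library, which limits the precision of their fold changes.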

Other observations

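Nuclear partners and targets of the pathway that were outside the naming rule differed with age at higher levels than most called genes, and were chosen after their values were seen. Ctnnbip1, which encodes an inhibitor of the binding of β-catenin to TCF factors, was at 10.5 to 14.4 TPM in young TOM+ cDC2, 10.4 to 13.0 TPM in young TOM- DC2 and 4.17 to 6.36 TPM in adults. It was higher in both young groups than in adults (log2FC 1.00 ± 0.18 SE and 0.96 ± 0.18 SE, edgeR adjusted p = 0.000698 and 0.0011). Ctbp2, a corepressor, was higher in both young groups as well, at 17.7 to 22.0 and 15.1 to 17.3 TPM against 10.2 to 11.4 TPM (log2FC 0.81 ± 0.11 SE and 0.45 ± 0.11 SE, edgeR adjusted p = 1e-04 and 0.00698). Both genes passed in all 20 alternatives. Myc, a transcription factor and Wnt target in other tissues, was at 39.6 to 54.2 and 42.7 to 56.2 TPM against 30.1 to 33.9 TPM (log2FC 0.34 and 0.38, edgeR adjusted p = 0.0365 and 0.0235), and passed in 12 and 18 of 20 alternatives. Leaving out a library gave adjusted p of 0.0274 to 0.145 and of 0.0128 to 0.0906, the highest without young TOM+ cDC2 library 81 and without adult library 95.

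Irf8, a transcription factor of cDC1 and of dendritic cell progenitors, had its groups in the same order as Tcf7, at 20.3 to 26.5 TPM in young TOM+ cDC2, 39.1 to 44.2 TPM in young TOM- DC2 and 45.2 to 49.2 TPM in adults. The log2FC was -0.77 ± 0.11 SE between the young groups, -1.10 ± 0.11 SE between young and adult TOM+ cDC2 and -0.34 ± 0.11 SE between young TOM- DC2 and adults (edgeR adjusted p = 0.00275, 1.4e-05 and 0.0334). The first and second of these passed in all 20 alternatives and the last in 10, with an adjusted p of 0.0547 to 0.0898 when any library of young TOM- DC2 or any adult library was left out. Irf8 was 1 of 6 cDC1 markers, of which 4 had a log2FC above 0 in each comparison (median 0.05, 0.23 and 0.14). Irf8 was the only marker of this list that passed as lower in any comparison, and 1 other passed as higher in young cells in each age comparison.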
